A study of Mus musculus with 65 samples.

Results

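The 300 kb of mouse chromosome 4 around Tal1 (chr4:114900000-115200000, mm10) was examined in 53 ChIP-seq peak lists, 19 of TAL1 and 34 of CTCF. Every peak that overlapped this stretch was taken. These were 299 of 544509 peaks, of which 43 were TAL1 peaks and 256 CTCF peaks. Peaks of the same factor that shared at least 1 bp in any library were merged, which gave 6 TAL1 regions of 13153 in the genome and 18 CTCF regions of 95140. Positions below are distances from the start of Tal1 at base 115056426 of chromosome 4, positive in the direction of transcription.

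TAL1, a transcription factor of the basic helix-loop-helix class, is needed by blood stem cells and by red cell precursors. It pairs with E proteins on E-boxes, and in red cells it joins GATA1, LMO2 and LDB1 in a complex that sits on paired E-box and GATA words. Tal1 is also among its own targets: enhancers on both sides of the gene, one of them an erythroid enhancer beyond the neighbouring gene Pdzk1ip1, bind this complex. CTCF binds DNA through zinc fingers at insulators and at the anchors of chromatin loops, and the Tal1 neighbourhood is a known example of a gene domain that CTCF sites divide. Stil, upstream, is a centriole gene active in dividing cells, and Pdzk1ip1, downstream, encodes a small membrane protein.

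The cell line was G1E-ER4+E2, a mouse line derived from embryonic stem cells that lacks GATA1, carries an estradiol-dependent GATA1 fusion and was treated with estradiol for a day to induce erythroid maturation. All 19 TAL1 libraries and 23 CTCF libraries came from it. Sonicated chromatin in the TAL1 libraries averaged 166 to 298 bp. The labels give the authors' own assessment of each library: 10 TAL1 libraries were Pass, 4 Low pass and 5 Fail, and 14 CTCF libraries of the line were Pass, 2 Low pass and 7 Fail. According to the paper the assessment was made by eye from the signal of these libraries at several well-known loci, and whether Tal1 was among them is not stated, so it is not independent of ChIP signal. The other 11 CTCF libraries came from cells sorted from the bone marrow of C57BL/6 mice: LSK stem and progenitor cells (2), CMP (1, Low pass), GMP (1, Low pass), MEP (1), the erythroid CFUE (1) and ERY (2), and the megakaryocytic CFUMk (1) and iMk (2). These populations were sorted by surface markers, the rarest needed marrow from many mice, and no TAL1 library of primary cells was analysed here. Nothing in the labels says that libraries of 1 group came from separate cultures or animals, so the tests measure the spread between libraries, which may be technical. Cell numbers and shearing cycles also differed among the libraries, and the CTCF Fail libraries include a pilot with few cells. According to the paper, fixation varied among the retrospective experiments and confounded their quality assessment. Several successful retrospective TAL1 experiments with longer chromatin had a different fixative. By its methods the primary cells were also fixed for longer than the line. Sequencing depth is unknown, since the files hold peaks only. TAL1 lists held 2670 to 9763 peaks in Pass, 1212 to 2751 in Low pass and 204 to 606 in Fail libraries, and CTCF lists 10655 to 21986 in Pass libraries of the line and 6629 to 36481 in primary cells. One TAL1 Pass library, of 221 bp, carries an antibody label that names CTCF, and its title names TAL1, which was used. Its peaks lay at the same 3 TAL1 regions as those of the other Pass libraries.

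Of the 6 TAL1 regions, 3 recurred. The first, centred at −8.1 kb (chr4:115047853-115048893), lay between Stil and Tal1. The second, at +0.2 kb (chr4:115056064-115057221), covered the Tal1 start, its first exon and part of an intron. The third, at +39.5 kb (chr4:115095251-115096639), lay between genes, past the end of Pdzk1ip1, in the stretch of the known erythroid enhancer. The sequences below are those of GRCm38, plus strand, shown because the 3 regions differ in the words that the TAL1 complex is known to bind. They are the central 300 bp of the −8.1 kb and +39.5 kb regions and the 250 bp before the Tal1 start. That last stretch is part of the +0.2 kb region but lies outside its central 300 bp. Capitals mark E-boxes (CANNTG), GATA words (GATAA or AGATAA on either strand, read as TTATC or TTATCT on the minus strand) and the CTG of a composite word, CTGNNNNNNNNAGATAA.
TAL1 −8.1 kb, chr4:115048201-115048500: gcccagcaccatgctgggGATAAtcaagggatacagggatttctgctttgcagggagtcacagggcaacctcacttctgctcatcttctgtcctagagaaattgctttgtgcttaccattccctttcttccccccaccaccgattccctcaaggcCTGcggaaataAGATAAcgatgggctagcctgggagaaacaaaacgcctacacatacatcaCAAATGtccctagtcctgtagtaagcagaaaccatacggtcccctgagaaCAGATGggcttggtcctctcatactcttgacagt
Upstream of the Tal1 start, chr4:115056176-115056425: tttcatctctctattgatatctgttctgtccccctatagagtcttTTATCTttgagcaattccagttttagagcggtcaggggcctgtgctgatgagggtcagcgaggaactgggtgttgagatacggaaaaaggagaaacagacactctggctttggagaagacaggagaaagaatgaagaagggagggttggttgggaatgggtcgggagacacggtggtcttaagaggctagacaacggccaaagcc
TAL1 +39.5 kb, chr4:115095742-115096041: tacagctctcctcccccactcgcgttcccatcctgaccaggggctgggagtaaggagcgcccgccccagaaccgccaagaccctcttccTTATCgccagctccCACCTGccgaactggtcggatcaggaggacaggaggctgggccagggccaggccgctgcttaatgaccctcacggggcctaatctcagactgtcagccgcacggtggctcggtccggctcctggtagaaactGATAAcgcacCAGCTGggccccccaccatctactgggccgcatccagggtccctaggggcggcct

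The central 300 bp of the −8.1 kb region held 1 composite word with 8 bases between CTG and AGATAA. Such a word was present in 11.8% of the 4567 TAL1 regions called in at least 5 Pass libraries, and in 0.329% of the 300 bp tiles of chromosome 4. The midpoint of the word lay 13 bp from the centre of the region, a distance set by the midpoints of the peaks. Neither of the other regions held the word with 7, 8 or 9 bases of spacing. The central 300 bp at +39.5 kb held 2 E-boxes and 2 GATAA words, and no AGATAA. Each GATAA word stood close to an E-box. One pair had GATAA at bases 115095977 to 115095981 and CAGCTG at 115095987 to 115095992. The other had GATAA on the minus strand at 115095831 to 115095835 and CACCTG at 115095845 to 115095850. The central 300 bp at +0.2 kb held 1 E-box and 2 GATAA words, 1 of them AGATAA. These lie past the Tal1 start and are not in the stretch shown. The word marked there is another AGATAA, on the minus strand at bases 115056221 to 115056226. An E-box was found in 84.6% of TAL1 regions and 80.1% of tiles. GATAA was found in 76.7% of TAL1 regions against 41.3% of tiles, and AGATAA in 52.3% against 18.7%. The regions at +0.2 and +39.5 kb were rich in G and C, 68.7% and 65.7% over the central 300 bp, against 50% at −8.1 kb and a median of 48.3% over TAL1 regions.

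The +39.5 kb region carried by far the strongest TAL1 peak of the locus. In the 10 Pass libraries its fold enrichment over background was lowest at 50.3, had a median of 72 and reached 126. Its −log10 p ran from 106 to 310 with a median of 186. The value of 310, shared by 3 libraries, may be a ceiling of the calculation, though the highest values in those lists were 320 to 323. Within the libraries its rank by −log10 p ran from 4 to 41, where tied peaks all take the best rank of their tie. In the 3 libraries at 310 these ranks were 4, 9 and 13, and the percentiles with ties averaged were 99.73, 99.66 and 99.44. The peak lay in the top 1% of peaks in 9 of 10 Pass libraries and at percentile 98.7 in the other. By median percentile over Pass libraries it ranked 15 among the 1877 TAL1 regions that all 10 of them called.

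The peak at +39.5 kb was also the most widely called. All 4 Low pass libraries called it. Their fold enrichments were 38.5 at 176 bp, 41.6 at 260 bp, 19.7 at 263 bp and 29.3 at 289 bp, all below the lowest Pass value. Of the 5 Fail libraries, those of 183 and 295 bp called it, at folds of 43.2 and 8.78, and those of 166, 273 and 297 bp did not. The Fail peak of 183 bp ranked 16 in a list of 352 peaks, while that of 295 bp ranked 273 of 291.

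At +0.2 kb, the Tal1 promoter, the fold enrichment in the 10 Pass libraries was lowest at 9, had a median of 21.6 and reached 75.5. The median percentile was 69.8, and the region ranked 1256 of the 1877. Low pass libraries of 176, 260 and 263 bp called it at folds of 14.4, 7.87 and 13.6, near or below the lower Pass values, and the Low pass library of 289 bp and the 5 Fail libraries did not. At −8.1 kb the Pass folds were lowest at 7.16, with a median of 10.9 and a highest value of 39.2. That region had a median percentile of 41.9 and ranked 1830 of the 1877, close to the bottom of the regions that all Pass libraries shared. Only 1 Low pass library called it, that of 289 bp, at a fold of 5.7. The Pass libraries of 205, 221, 226 and 298 bp had the highest folds at each of the 3 regions. At −8.1 kb these libraries ran from 26.9 to 39.2 and the other 6 from 7.16 to 12. They also had the longest lists of the Pass group, with 4486 to 9763 peaks against 2670 to 4474, and the part of list length in the folds was not tested. In all 10 Pass libraries the −log10 p at +39.5 kb was the highest of the 3, and in 9 of 10 it was higher at the promoter than at −8.1 kb. The exception was the library of 221 bp, with 29.1 at −8.1 kb and 23.0 at the promoter. This is the library whose antibody label names CTCF, and the −8.1 kb region overlaps a CTCF region by 672 bp. Whether the label bears on these values was not tested.

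**Figure D1:**
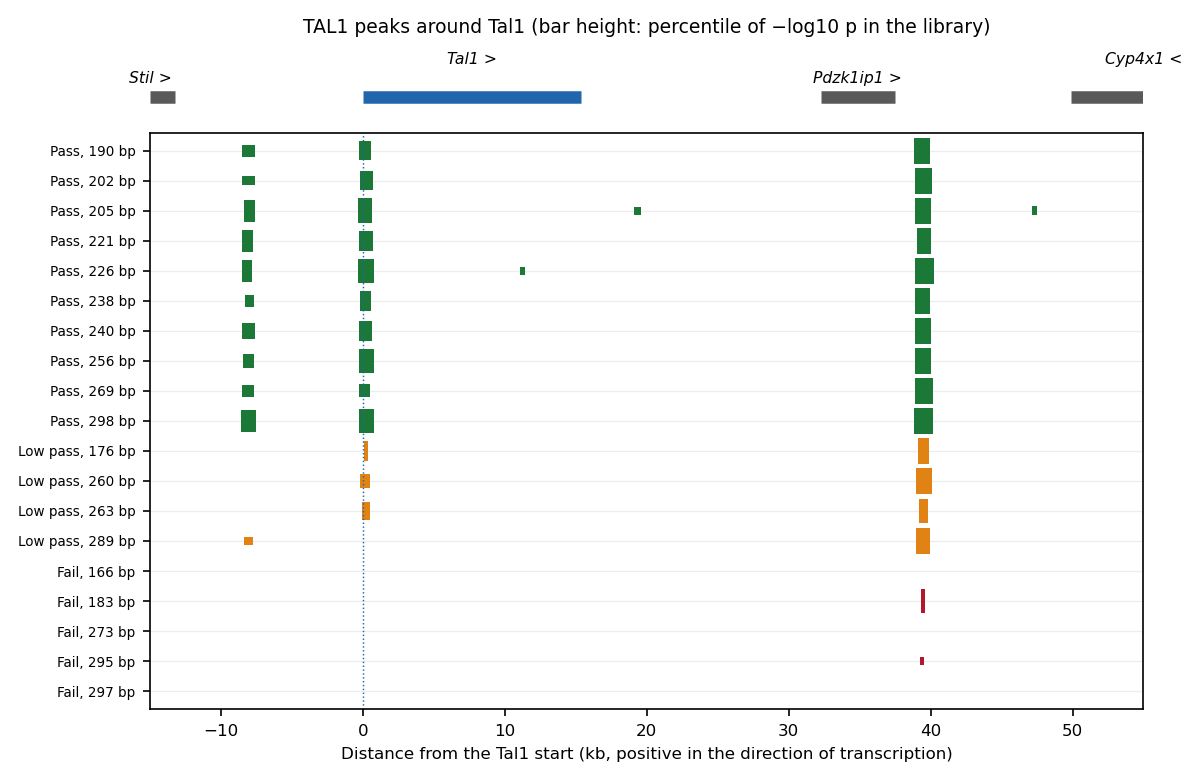
TAL1 peaks of the 19 libraries against distance from the Tal1 start in kb, with 1 line per library and protein-coding genes above. Bar height gives the percentile of −log10 p within the library. All 10 Pass libraries have peaks at −8.1, +0.2 and +39.5 kb, and 3 of 5 Fail libraries have none.

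**Figure D2:**
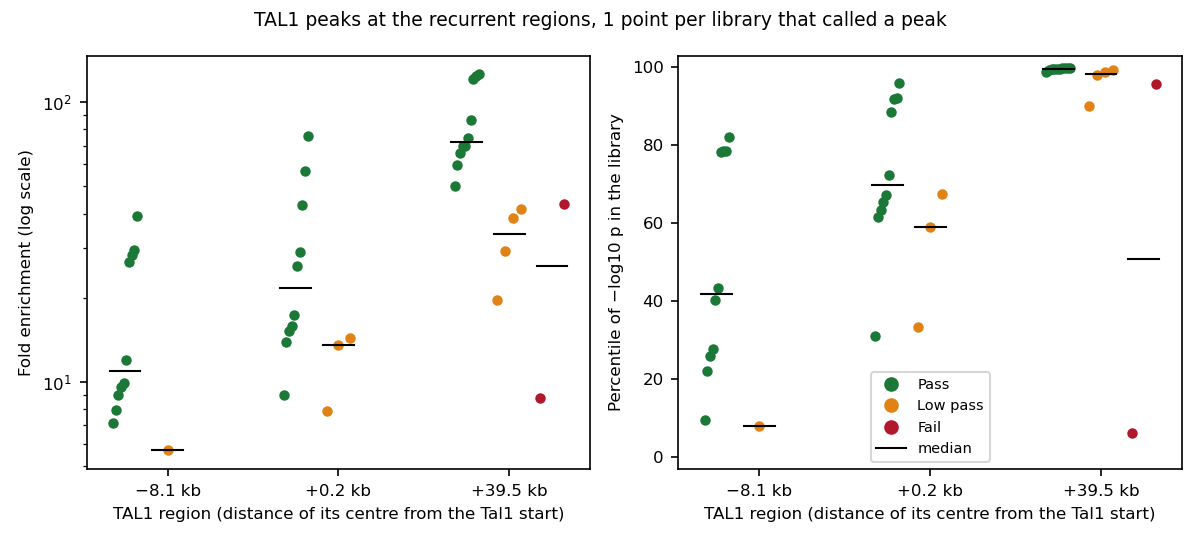
Fold enrichment on a log axis (left) and percentile of −log10 p within the library (right) at the 3 recurrent TAL1 regions. Each point is a library that called a peak there and black lines are medians. At +39.5 kb the Pass folds run from 50.3 to 126 and the Low pass folds from 19.7 to 41.6.

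Calls were compared between Pass and the other libraries by a two-sided Fisher's exact test on every TAL1 region called in at least 3 of the 19 libraries, with Benjamini-Hochberg adjustment over all 7115 of them. Of the 3 regions tested at the locus 2 passed at an adjusted p under 0.05. Over the genome 48.9% of tested regions did, so this share is no mark of the locus. The 3 are the recurrent regions, which were taken up for their calls in Pass libraries. The assessment also rests on ChIP signal, so the p-values below carry no weight of their own. The −8.1 kb region was called in 10 of 10 Pass and 1 of 9 other libraries (Fisher's exact test, adjusted p = 0.0016). The promoter was called in 10 of 10 and 3 of 9 (Fisher's exact test, adjusted p = 0.0109). The +39.5 kb region was called in 10 of 10 and 6 of 9 and did not pass (Fisher's exact test, adjusted p = 0.113). Within each series the +39.5 kb region was again the one called most often outside the Pass group. In the study series the 4 Low pass or Fail libraries called the 3 regions, from upstream to downstream, 0, 2 and 3 times. In the retrospective series the 5 such libraries called them 1, 1 and 3 times.

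Each of the other 3 TAL1 regions was called by 1 Pass library. The library of 226 bp had a peak at +11.2 kb inside an intron of Tal1, and the library of 205 bp had peaks at +19.3 kb and +47.3 kb. Their folds were 6.78, 7.54 and 6.71 and their −log10 p 5.32, 5.31 and 5.71, near the lowest that any list holds, and none of the other 18 libraries called them. The +19.3 kb peak lies between Tal1 and Pdzk1ip1, where a stem cell enhancer of Tal1 is known.

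The Pass libraries held 3.3 ± 0.675 TAL1 peaks in the window (SD, n = 10) and the Low pass and Fail libraries 1.11 ± 0.928 (SD, n = 9). The groups did not overlap, with 3 to 5 peaks against 0 to 2 (exact permutation test, two-sided, adjusted p = 6.50e-05 over 3 tests). The lists of Pass libraries were nearly all longer, and over the genome 48.9% of tested TAL1 regions differed in calls between these groups. How often other stretches of this size separate the groups was not counted, so the separation cannot be read as a mark of the locus. The assessment also rests on ChIP signal, so the p-values of this comparison carry no weight of their own. The difference was 2.25 peaks in the study series alone (exact permutation test, adjusted p = 0.0143) and 2 in the retrospective series alone (adjusted p = 0.0238, exact permutation). Per 1000 peaks of a library the direction turned: Pass libraries held 0.715 ± 0.231 and the others 1.23 ± 1.25, a difference within the spread (exact permutation test, adjusted p = 0.358). Libraries of 200 to 250 bp held 3.5 ± 0.837 peaks (SD, n = 6) against 1.69 ± 1.18 at other lengths (SD, n = 13, exact permutation test, adjusted p = 0.00774). According to the paper, this length range gave the most frequent success in experiments that include these libraries. The p-value of the comparison therefore carries no weight of its own. That comparison did not pass within the study series (adjusted p = 0.0857, exact permutation) or the retrospective series (adjusted p = 0.5, exact permutation; 2 against 7 libraries). All 6 libraries of that length were Pass, so length and assessment cannot be told apart there.

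**Figure D3:**
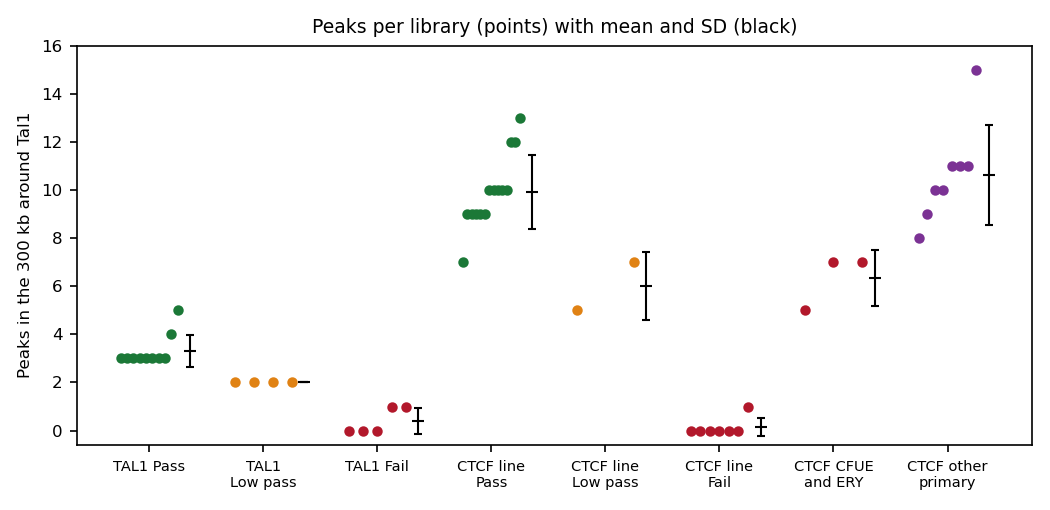
Number of peaks per library in the 300 kb around Tal1, by factor, cell source and assessment. Points are libraries, and black marks are the mean with 1 SD. TAL1 Pass libraries, whose lists were nearly all longer, hold 3 to 5 peaks and the other TAL1 libraries 0 to 2.

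At the level of genes, a TAL1 peak in the body of Tal1 or within 10 kb of it was called in 10 of 10 Pass, 4 of 4 Low pass and 0 of 5 Fail libraries (Pass against the rest, Fisher's exact test, adjusted p = 0.0207). The margin of 10 kb does not reach the +39.5 kb region, which counts toward Pdzk1ip1, called in 10 of 10 Pass and 6 of 9 other libraries, and toward Cyp4x1. Stil was called through the −8.1 kb region. Foxd2, Foxe3 and Cmpk1, the remaining protein-coding genes of the window, had no TAL1 peak in any library. Without the library of 221 bp, Tal1 missed the threshold, with 9 of 9 Pass against 4 of 9 other libraries (Fisher's exact test, adjusted p = 0.0519).

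The partners and fellow targets of TAL1 were read in the same way. Of 21 listed genes 19 could be tested and 14 passed, all called more often in Pass libraries. Over the genome 66.7% of 4991 tested genes passed. Gfi1b, among the listed genes that passed, is the locus at which the paper illustrates its assessment. Its result is therefore not independent of the grouping. Without the library of 221 bp, 6 of 18 tested genes passed, against 40% of 4945 over the genome. Lmo2, the bridging protein of the TAL1 complex, was called in 10 of 10 Pass and 1 of 9 other libraries (Fisher's exact test, adjusted p = 0.00146). Ldb1, the dimerizing cofactor, was called in 10 of 10 and 2 of 9 (Fisher's exact test, adjusted p = 0.00409). Gata1 was called in 10 of 10 and 5 of 9 (Fisher's exact test, adjusted p = 0.0488). Lyl1, the nearest relative of TAL1, was called in 10 of 10 and 7 of 9, and Zfpm1, which encodes the GATA1 partner FOG1, and Runx1 in 10 of 10 with 7 and 6 of 9; none of these 3 passed, and their median percentiles in Pass libraries were 98.8, 97.3 and 98. Among the E protein genes Tcf12 was called in 10 of 10 Pass libraries and Tcf3 in 6, and Tcf4 and the LIM factor gene Lmo4 in none of the 19. Tal1 by its near peaks had a median percentile of 72.7, between Lmo2 at 71.3 and Tcf12 at 81.4.

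The 5 genes whose near TAL1 peaks were most like those of Tal1 were chosen among 3623 genes by the mean absolute difference, over 19 libraries, in the percentile of the strongest peak. Only peaks in the gene body or within 10 kb counted, so the +39.5 kb peak had no part in this likeness. The 5 genes were Eng at 6.54 points, Mgat4b at 6.9, Glipr2 at 7.29, and Cib1 and Gdpgp1, which gave the same value of 8.05, as did Rtf1. The median over all genes compared was 23.3 points. Eng encodes endoglin, a surface receptor of endothelium and blood progenitors.

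CTCF bound on both sides of Tal1 and, at the depth of these lists, rarely in it. Of the 18 CTCF regions 9 were called in at least 7 of the 14 Pass libraries of the line or 6 of the 11 primary libraries. From upstream to downstream they were centred at −146.5 kb (chr4:114908053-114910897, at Foxd2 and its divergent transcript Foxd2os), −139.2 kb (chr4:114916753-114917779, an intron of Foxd2os), −108.8 kb (chr4:114947030-114948134, between Foxe3 and Cmpk1), −59.2 kb (chr4:114996688-114997676, between Cmpk1 and Stil), −18.0 kb (chr4:115037922-115038929, over a coding exon of Stil) and −8.5 kb (chr4:115047399-115048524, between Stil and Tal1). Downstream of Tal1 they were centred at +29.4 kb (chr4:115085249-115086313, before Pdzk1ip1), +40.9 kb (chr4:115096840-115097866) and +45.4 kb (chr4:115101186-115102321), the last pair between Pdzk1ip1 and Cyp4x1. The best matches to a CTCF matrix of 19 bp are given below for the 6 regions nearest the gene, since the direction of the match is a feature of loop anchors, and for the regions at −146.5 and −139.2 kb, on which the comparisons of cells turn. They are GRCm38 sequence on the strand of the match, with 10 bases on each side and the match in capitals.
CTCF −146.5 kb, minus strand, chr4:114908979-114909017: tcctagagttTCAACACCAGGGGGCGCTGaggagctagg
CTCF −139.2 kb, plus strand, chr4:114917272-114917310: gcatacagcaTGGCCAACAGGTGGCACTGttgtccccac
CTCF −59.2 kb, plus strand, chr4:114997166-114997204: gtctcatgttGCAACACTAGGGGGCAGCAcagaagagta
CTCF −18.0 kb, plus strand, chr4:115038419-115038457: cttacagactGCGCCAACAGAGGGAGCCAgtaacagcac
CTCF −8.5 kb, plus strand, chr4:115047913-115047951: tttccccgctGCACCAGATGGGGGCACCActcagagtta
CTCF +29.4 kb, minus strand, chr4:115085753-115085791: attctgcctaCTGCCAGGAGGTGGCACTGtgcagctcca
CTCF +40.9 kb, minus strand, chr4:115097350-115097388: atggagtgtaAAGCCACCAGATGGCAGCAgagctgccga
CTCF +45.4 kb, plus strand, chr4:115101788-115101826: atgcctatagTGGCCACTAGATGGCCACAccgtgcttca

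All 9 regions held a match at a p of 0.0001 per position, read over their whole merged length of 989 to 2845 bp. At −146.5 kb the best match lay at −885 bp from the centre of the region, and at the others within 22 bp of it. Over the central 300 bp only, 91.3% of the 13938 CTCF regions called in at least 7 Pass libraries held a match. Of TAL1 regions 23.4% did, and of tiles 13.4%. The 9 regions and these shares therefore differ in the length read. The matches at −59.2, −18.0 and −8.5 kb lay on the plus strand and those at +29.4 and +40.9 kb on the minus strand, so they point toward each other across Tal1, and the match at +45.4 kb lay on the plus strand again. The match at −8.5 kb lay 1 bp from the centre of its CTCF region and scored 15.6, the lowest of the 9 regions, while that at +29.4 kb scored 20.2. The stretch of the TAL1 region at +39.5 kb, read over its full 1389 bp, held a match that scored 16.2, and no CTCF peak of any library overlapped it.

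The upstream TAL1 region and the CTCF region beside it overlapped by 672 bp, with centres 420 bp apart. Over the genome 5.26% of TAL1 regions called in at least 5 Pass libraries overlapped a CTCF region called in at least 7. The downstream TAL1 region and the CTCF region at +40.9 kb did not overlap and were 200 bp apart.

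Every Pass and Low pass library, 14 and 2 of the line and 11 of primary cells, called the CTCF regions at −8.5, +29.4 and +45.4 kb. At +29.4 kb the Pass folds were lowest at 12.6, with a median of 19.1 and a highest value of 48.3, and in primary cells they were 12.4, 28.2 and 94.5. At +45.4 kb they were 12.7, 19.8 and 40.8 in the line and 12.4, 23.7 and 64 in primary cells. At −8.5 kb they were 9.51, 14.9 and 35.1 in the line and 8.7, 15.7 and 73.2 in primary cells. The values of line and primary cells overlap at each of the 3. Among the erythroid cells the +29.4 kb peak had percentiles of 90.2 in CFUE and 97.3 and 96.8 in ERY, the −8.5 kb peak 45.8, 85.3 and 76.0, and the +45.4 kb peak 65.1, 96.9 and 78.4. In each case CFUE was the lowest. The regions at +29.4 and +45.4 kb, with median percentiles of 89 and 92.4 in the line, ranked 1197 and 763 among the 5676 CTCF regions that all 14 Pass libraries called, and that at −8.5 kb ranked 2913.

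The other 6 recurrent regions differed in who called them. The region at +40.9 kb, next to the TAL1 enhancer peak, had a call in each of the 14 Pass line libraries and in LSK, CMP, MEP, CFUMk and iMk, and not in GMP, CFUE or either ERY library. Its fold was 11.4 and 14.5 in LSK, 17.2 in CMP, 8.81 in MEP, 24.2 in CFUMk, and 8.4 and 15.1 in iMk. The region at −139.2 kb was called in 13 of 14 Pass libraries and in every primary library other than CFUE and ERY. Its fold was 11.4 and 30.2 in LSK, 16.9 in CMP, 8.16 in MEP, 33.5 in GMP, 36.4 in CFUMk, and 17.9 and 20.1 in iMk. MEP was the lowest of those that had the peak. The region at −18.0 kb, in Stil, was called in all 14 Pass libraries and in 7 of 11 primary libraries, and was not called in GMP, MEP, CFUE and the ERY library of 250 bp. The region at −59.2 kb was called in all 14 and in 9 of 11, with no call in GMP and CFUE. The region at −108.8 kb was called in 13 of 14 and in 7 of 11, with no call in CMP, MEP, CFUE and the ERY library of 276 bp. At −146.5 kb 12 of 14 Pass and all 11 primary libraries had a call.

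**Figure D4:**
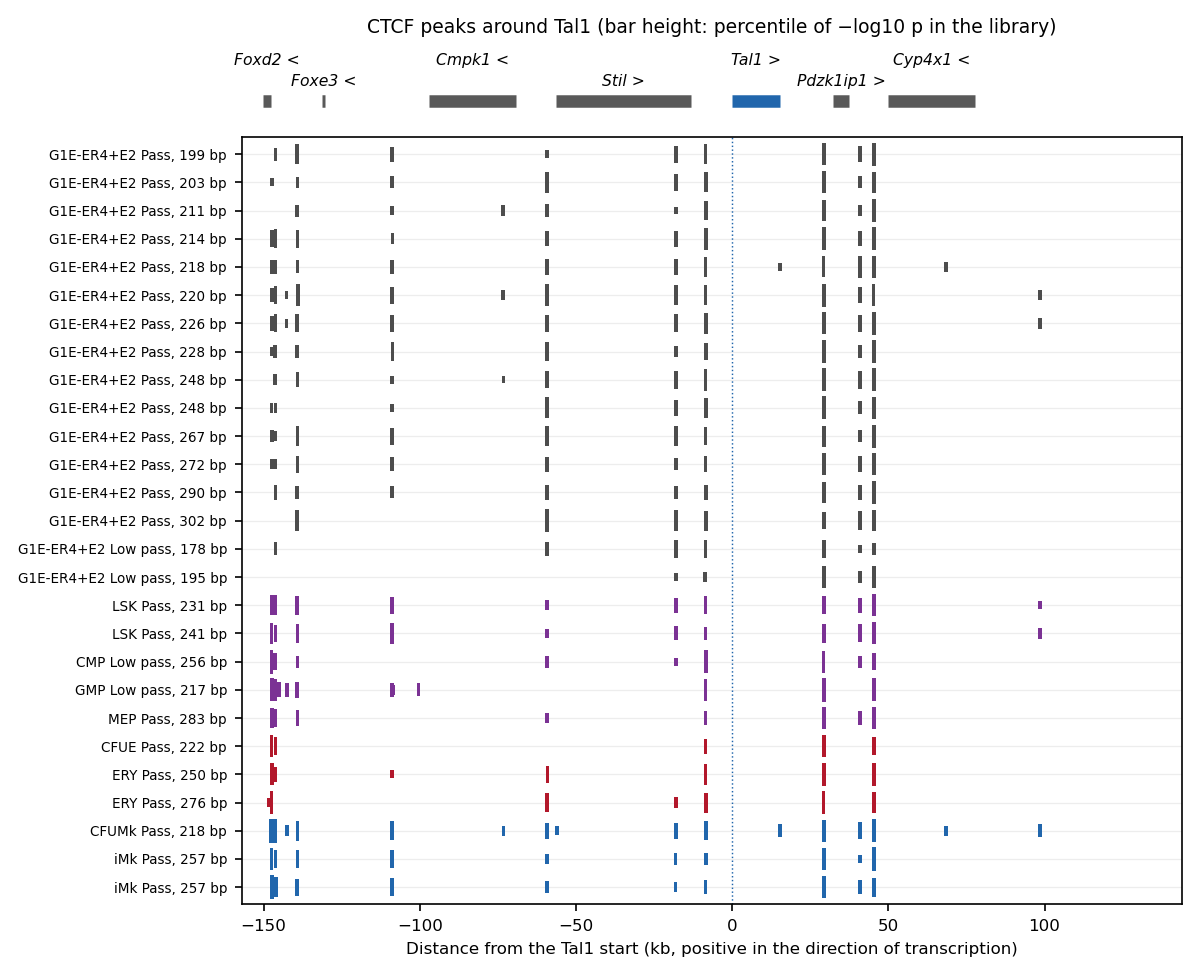
CTCF peaks of libraries assessed as Pass or Low pass against distance from the Tal1 start in kb, with protein-coding genes above. Line libraries are grey, LSK, CMP, GMP and MEP purple, CFUE and ERY red and megakaryocytic cells blue, and bar height gives the percentile of −log10 p within the library. Peaks at −8.5, +29.4 and +45.4 kb appear in every library shown, and CFUE and ERY show none at −139.2 or +40.9 kb.

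Erythroid primary cells (CFUE and ERY, 3 libraries) were set against the other 8. With 3 against 8 the smallest p that Fisher's exact test allows is 0.00606, and none of 26147 regions over the genome passed after adjustment, which is 0% called; 5251 of them had an unadjusted p under 0.05. At −139.2 kb the calls were 0 of 3 and 8 of 8 (Fisher's exact test, p = 0.00606, adjusted p = 0.0539). At +40.9 kb they were 0 of 3 and 7 of 8 (Fisher's exact test, p = 0.0242, adjusted p = 0.121). The erythroid lists were the shortest of the primary cells, with 6629 to 11990 peaks against 15002 to 36481. In the other libraries the −139.2 kb peak ranked 5464 to 18798 by −log10 p. It stood within the first 6629 peaks in 1 of 8 and within the first 11990 in 6 of 8. The +40.9 kb peak ranked 6582 to 18221, within the first 6629 peaks in 1 of 7 and within the first 11990 in 2 of 7. Among the 6000 strongest peaks of each list the −139.2 kb region was called in 1 of 11 primary libraries and the +40.9 kb region in 0 of 11, so at equal list length neither could be tested between erythroid and other cells. In the line, which is erythroid too, both regions were called in nearly every Pass library, with median folds of 12.4 at −139.2 kb and 11.5 at +40.9 kb. Its Pass lists held 10655 to 21986 peaks against 6629 to 11990 in CFUE and ERY. Series, fixation and input differed as well, and the cause of the missing calls was not tested.

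Line and primary cells were then compared over 28834 CTCF regions. At the locus 0 of 12 tested regions passed, while 11.1% did over the genome. The differences nearest to the threshold were at −18.0 and +40.9 kb, each 14 of 14 against 7 of 11 (Fisher's exact test, p = 0.0261, adjusted p = 0.11). Equal list lengths changed this picture at the Foxd2 end. Among the 6000 strongest peaks of each list, the −146.5 kb region was present in 1 of 14 line and 10 of 11 primary libraries (Fisher's exact test, adjusted p = 9.11e-04), the only one of 9 tested at the locus to pass, against 18.6% over the genome. With peaks of −log10 p of at least 10 the calls there were 5 of 14 and 11 of 11 (Fisher's exact test, adjusted p = 0.0189), and the −59.2 kb region went the other way, with 12 of 14 and 2 of 11 (Fisher's exact test, adjusted p = 0.0226). These were 2 of 9 tested, against 8.8% over the genome. The median percentile at −146.5 kb was 37.3 in line Pass libraries and 91.5 in primary libraries. CFUMk had the highest −log10 p there, 215, in a single wide peak that joined its neighbours. With peaks reduced to their middle 200 bp this region separated into 4. The site at −147.4 kb was called in 9 line and 10 primary libraries and that at −146.2 kb in 11 and 9, while those at −148.1 and −146.9 kb held no Pass peak of the line and 1 primary peak each, of ERY and of CFUMk. Cell source was confounded with series, with fixation and with the input used for calling, and these cannot be told apart.

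**Figure D5:**
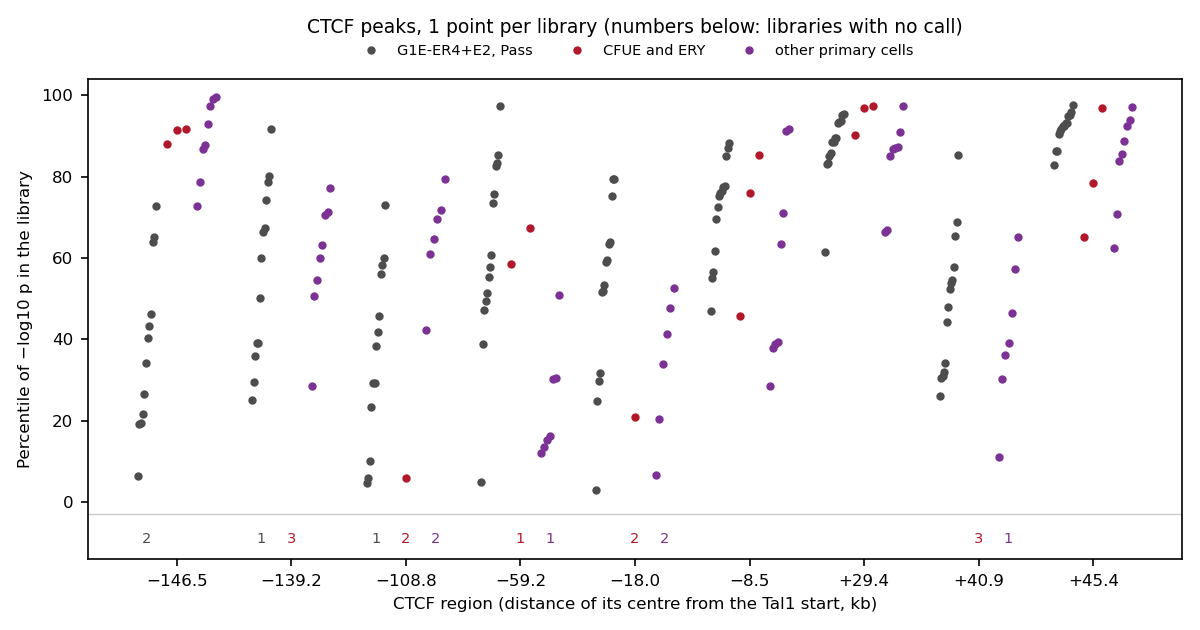
Percentile of −log10 p within the library at the 9 recurrent CTCF regions, 1 point per library that called a peak, with the number of libraries without a call below the line. At −146.5 kb primary libraries have a median of 91.5 and line Pass libraries 37.3. CFUE and ERY have no call at −139.2 and +40.9 kb.

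The line held 9.93 ± 1.54 CTCF peaks in the window (SD, n = 14 Pass libraries) and primary cells 9.45 ± 2.7 (SD, n = 11), a difference within the spread (permutation test, two-sided, adjusted p = 0.649). Per 10000 peaks the line held 7.07 ± 0.885 and primary cells 5.33 ± 2.26 (permutation test, adjusted p = 0.0138). This ratio has list length as its divisor, with a median of 13164 peaks in the line and 19612 in primary cells. The ERY lists, the shortest, gave 8.45 and 10.6, and the GMP and CFUMk lists, the longest, 3.2 and 4.11. CFUE, with 11990 peaks, gave 4.17. The part of list length was not tested, and other stretches of this size were not counted. Among primary cells CFUE held 5 peaks and CFUMk 15, the fewest and the most, and CFUMk also had the longest list.

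Between 14 Pass and 9 Low pass or Fail libraries of the line, 9 of 10 CTCF regions tested at the locus passed, against 65.8% of 20658 over the genome. The 9 are the recurrent regions, which were taken up for their calls in Pass libraries, so this count carries no weight of its own. The 2 Low pass libraries, of 178 and 195 bp, held 7 and 5 peaks, and both called the regions at −18.0, −8.5, +29.4, +40.9 and +45.4 kb. None of the 7 Fail libraries called any recurrent region. The only Fail peak in the window lay at +128.1 kb, in a library with 17343 peaks and no chromatin length. It was 126 bp wide, lay wholly in repeats and held no CTCF match.

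The remaining CTCF regions were rare. Of these 9 regions 5 were called in 2 to 5 libraries, at −142.6, −73.2, +15.3, +68.5 and +98.5 kb, and 4 in a single library. The +15.3 kb region covers the end of Tal1, in its 3′ untranslated exon, and was called in 1 line library, of 218 bp, and in CFUMk, at folds of 7.91 and 16.4. It was the only CTCF region that touched Tal1. CFUMk called all 5 of those in more than 1 library, and LSK called +98.5 kb in both of its libraries.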

How the data were processed

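CTCF and TAL1 ChIP-seq peaks of 53 libraries were used, and the input samples were not analysed here. Reads were mapped by the authors to mm10 (GRCm38) with Bowtie and peaks were called per library with MACS, for most libraries of the line against a composite input. Bowtie 1.0.0 and bcl2fastq 1.8.4 stand in the processing notes of the submitters, while an earlier Bowtie is given in the paper. The p cutoff and duplicate handling are not given in the sources used here. The deposited lists give for each peak the fold enrichment (a ratio over background) and the −log10 p, as the authors computed them, and an FDR that was not used. Both depend on depth, which the lists do not give, so peaks were also ranked by −log10 p within a library, as percentiles with ties averaged. Where a rank is given as a number, tied peaks all take the best rank of their tie. No read counts were used; the number of libraries sets the precision.

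Peaks sharing at least 1 bp were merged per factor. Groups are those of the labels; series are from the paper. Regions called in at least 3 compared libraries, and protein-coding genes of GENCODE M21 with a peak in the body or 10 kb beyond, were tested by Fisher's exact test (scipy 1.17.1) with Benjamini-Hochberg adjustment over all tested (statsmodels 0.14.6, threshold 0.05). The test was tried on simulated calls first. Peak numbers were compared by exact permutation, or with 100000 resamples for 14 against 11 libraries. The peak positions lie inside the GRCm38 chromosomes used for sequence. The CTCF matrix came from 15 rounds of learning on 200 bp centred on each of the 2000 strongest LSK peaks (231 bp library) outside chromosome 4. Regions described singly were TAL1 regions in at least 5 Pass libraries and CTCF regions in at least 7 Pass or 6 primary libraries. All protein-coding genes of the window and 21 listed genes were named by rule, and the 5 most like Tal1. Members and lists were chosen with earlier results of these data known. Alternatives were a −log10 p of at least 10, the middle 200 bp of peaks, the 6000 strongest peaks, single libraries or series left out, peak numbers per library size and a 2 kb gene margin.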

Additional observations from a re-analysis of the deposited data

Results flagged for a closer look

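Single libraries stood apart from the rest of their group in 6 of 17 groups of values examined, by a criterion that chance meets in about 1 in 20 groups of normal values; for small whole counts of peaks that rate was not tested. The TAL1 Pass library of 205 bp held 5 peaks in the window, where the next held 4 and the others 3. The TAL1 Pass library of 269 bp had the lowest percentiles of the Pass group at both the promoter and the enhancer: 31.1 at +0.2 kb, where the next was 61.7, and 98.7 at +39.5 kb, where the next was 99.4. The TAL1 Low pass library of 263 bp had its +39.5 kb peak at percentile 89.9, where the next of the 4 Low pass libraries was at 97.9. Among the 7 CTCF Fail libraries 1 held a peak in the window and the rest 0. Among the 8 primary libraries other than CFUE and ERY, CFUMk held 15 CTCF peaks, where the next held 11.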

How the results depend on the processing

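The TAL1 region calls (2 of 3 regions) and the Pass comparison of CTCF (7 to 10 regions) held under the alternatives run for them. The CTCF regions at −146.5 and −108.8 kb, though, missed the threshold between Pass and other libraries with a −log10 p of at least 10. The erythroid comparison gave 0 regions in every setting, at the locus and over the genome, so its count cannot show whether it holds. With 1 CFUE or ERY library left out, even 0 of 2 against 8 of 8 at −139.2 kb gave p = 0.0222 (Fisher's exact test, adjusted p = 0.156 to 0.181). The number of CTCF regions that differed between line and primary cells went from 0 to 2 with a −log10 p of at least 10 and to 1 with the 6000 strongest peaks; without CFUMk, an alternative chosen after seeing the data, it was 0. Of the listed genes 6 passed without the TAL1 library labelled with the CTCF antibody, against 14, in a comparison of 9 against 9 libraries. The genome-wide TAL1 call counts were 3481 of 7115 regions and 3327 of 4991 genes, 2544 of 6991 (36.4%) and 1978 of 4945 (40%) without that library, and 2195 of 4503 (48.7%) and 1972 of 3545 (55.6%) with a −log10 p of at least 10. CTCF calls between line and primary cells went from 3200 of 28834 regions to 1762 of 20020 (8.8%) with that threshold and 2111 of 11374 (18.6%) with the 6000 strongest peaks, and between Pass and other libraries from 13589 of 20658 to 7919 of 12684 (62.4%) with that threshold. The difference in TAL1 peak number between Pass and other libraries reversed per 1000 peaks (−0.516). The difference by chromatin length missed the threshold in the study series (1.92 peaks) and the retrospective series (1.43 peaks), each with fewer libraries. The CTCF difference per 10000 peaks passed (1.73), where the divisor, list length, differed between the groups. For single regions, line minus primary reversed at −108.8 kb with a −log10 p of at least 10 (−2.6 percentage points) and with the 6000 strongest peaks (−3.9), and at −59.2 kb erythroid minus other reversed without CFUE (−37.5 to 12.5 over single libraries left out, −20.8 with all); the cause was not tested. No paired analysis was possible because replicate numbers were given in accession order and pair no libraries. Depth is unknown, so a missing call does not show that binding was absent.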
